A study of Homo sapiens with 20 samples.

Results

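Regions of N6-methyladenosine (m6A) enrichment that lay in short internal coding exons were examined in 2 human bladder cancer cell lines. T24 is sensitive to cisplatin, and T24R2 is a resistant line made from T24 by stepwise exposure to cisplatin and kept in medium with the drug. Both lines were labelled wild type, were grown for 3 days and are single lines, so a difference between them is a difference between these 2 cultures. RNA was pulled down with an anti-m6A antibody in methylated RNA immunoprecipitation sequencing (MeRIP-seq), with 5 immunoprecipitation (IP) libraries and 5 input libraries for each line, and the inputs enter here only through the peak calling.

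A region was one interval of the list that merges the peaks of the 10 IP libraries, and its position was the median summit of all peaks in it. It was kept when that position fell in coding sequence of a protein-coding canonical transcript, in an exon shorter than 400 nt that was neither the first nor the last, and more than 200 nt of spliced RNA from the stop codon. Of 43676 regions, 5137 (11.8%) met this rule, in 2890 genes. They are called short-exon regions below. Regions in internal coding exons of 400 nt or more (3348 regions, long-exon regions) and regions within 200 nt of a stop codon (4684 regions) served for comparison. A region counted as called in a library if any peak of that library shared 1 base or more with it.

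m6A is placed on messenger RNA by the METTL3 and METTL14 methyltransferase complex at DRACH sequences, where D is any base but C, R is a purine and H is any base but G. Most DRACH sequences carry no detectable m6A. The exon junction complex, which splicing leaves just upstream of each junction, is known to keep the methyltransferase away from nearby RNA, so that in many cell types m6A gathers in long internal exons and around stop codons and is sparse in short internal exons.

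The lists hold no read counts, so the depth of each library is unknown. They carry no strand, and a region that is absent may reflect less RNA or less methylation, which cannot be told apart here. The lists held 17203 to 22901 peaks in T24 and 22671 to 33120 in T24R2, and T24R2 replicate 5 had the longest list. Of the 15 urothelial and epithelial marker genes 5 had any exonic region (KRT7, KRT18, UPK1A, GATA3 and PPARG), while KRT5, KRT20, UPK2, UPK3A, TP63 and CDH1 had none. Of 12 markers of blood, endothelial and stromal cells 6 had one, and these lists do not give the level of any of these RNAs. Only UPK1A, a uroplakin, and CDH5, an endothelial cadherin, held short-exon regions, with 1 and 2.

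The windows that follow show what these sites look like. Each gives the exon sequence within 50 nt of the position, cut at the exon's ends, in the 5′ to 3′ sense of the gene and with DRACH matches in capitals (hg38). The first set holds regions that every library called, and was chosen to span positions deep inside an exon and positions at its 5′ end.
CFAP20DC exon 12 (chr3:58863589-58863689, minus strand): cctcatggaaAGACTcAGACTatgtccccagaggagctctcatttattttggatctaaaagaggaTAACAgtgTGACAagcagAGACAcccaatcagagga
LRRC27 exon 6 (chr10:132348140-132348240, plus strand): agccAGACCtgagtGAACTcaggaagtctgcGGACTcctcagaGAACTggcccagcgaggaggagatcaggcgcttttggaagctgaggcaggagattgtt
CEP250 exon 31 (chr20:35507738-35507826, plus strand): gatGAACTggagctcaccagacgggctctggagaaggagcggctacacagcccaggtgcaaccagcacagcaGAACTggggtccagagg
PLK4 exon 7 (chr4:127889957-127890057, plus strand): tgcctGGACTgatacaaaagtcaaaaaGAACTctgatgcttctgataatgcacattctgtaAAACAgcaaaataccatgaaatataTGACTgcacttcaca
GPATCH3 exon 3 (chr1:26894355-26894410, minus strand): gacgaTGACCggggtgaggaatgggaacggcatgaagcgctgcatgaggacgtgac
WDR33 exon 17 (chr2:127717209-127717263, minus strand): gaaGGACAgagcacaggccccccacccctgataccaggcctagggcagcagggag

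The second set holds regions that all 5 T24R2 libraries and no T24 library called.
TNC exon 4 (chr9:115084398-115084472, minus strand): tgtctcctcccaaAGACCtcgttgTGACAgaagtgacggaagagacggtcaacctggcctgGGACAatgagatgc
PCNT exon 39 (chr21:46435904-46435957, plus strand): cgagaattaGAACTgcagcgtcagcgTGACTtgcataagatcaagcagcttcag
CENPF exon 10 (chr1:214632480-214632553, plus strand): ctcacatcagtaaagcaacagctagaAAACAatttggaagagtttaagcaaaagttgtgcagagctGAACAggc
NRP2 exon 2 (chr2:205697544-205697623, plus strand): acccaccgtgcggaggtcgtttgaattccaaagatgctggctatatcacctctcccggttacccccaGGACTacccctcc

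The third set holds regions that all 5 T24 libraries and no T24R2 library called.
CDH4 exon 3 (chr20:61743563-61743637, plus strand): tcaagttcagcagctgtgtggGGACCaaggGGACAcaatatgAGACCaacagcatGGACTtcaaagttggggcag
STON2 exon 7 (chr14:81270759-81270859, minus strand): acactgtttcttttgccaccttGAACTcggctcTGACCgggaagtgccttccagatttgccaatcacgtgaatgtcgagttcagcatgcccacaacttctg
LAYN exon 2 (chr11:111544080-111544180, plus strand): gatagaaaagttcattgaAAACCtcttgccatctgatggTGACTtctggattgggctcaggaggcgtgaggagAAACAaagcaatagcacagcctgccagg
ELF3 exon 7 (chr1:202013182-202013255, plus strand): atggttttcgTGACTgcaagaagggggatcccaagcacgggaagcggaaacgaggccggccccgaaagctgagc
TP73 exon 4 (chr1:3707600-3707700, plus strand): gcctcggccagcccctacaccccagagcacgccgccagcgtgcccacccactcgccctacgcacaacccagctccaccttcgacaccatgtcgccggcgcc

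These windows differed in how many DRACH matches they held, from 5 in CFAP20DC to 1 in GPATCH3, WDR33, NRP2 and ELF3, and TP73 held none. The position of GPATCH3 lay 5 nt from the first base of its exon, that of WDR33 4 nt and that of PCNT 3 nt, so their windows start at the splice junction. In LRRC27 and PLK4 the position lay 206 and 141 nt into exons of 373 and 371 nt.

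Short-exon regions were sparse, and their density rose steeply with exon length. Counted over internal coding exons of the 9179 genes with a region in any exon, exons under 60 nt held 172 regions per Mb, exons of 100 to 149 nt held 410, exons of 200 to 299 nt held 673 and exons of 300 to 399 nt held 1233. Exons of 400 to 599 nt held 1630 per Mb. Beyond that the density fell again, to 681 per Mb in exons of 2000 nt or more. A region is a merged interval, so sites close together in a long exon can count as 1 region. The part of this in the fall was not tested. The share of exons with at least 1 region climbed all the way, from 0.767% under 60 nt and 4.89% at 100 to 149 nt to 15.0% at 200 to 299 nt, 74.0% at 400 to 599 nt and 92.9% at 2000 nt or more. For regions that all 10 libraries called, the rise was steeper, from 4.01 per Mb under 60 nt to 280 at 300 to 399 nt and 751 at 400 to 599 nt.

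The limit of 400 nt did not fall at a break in the data. Exons just under it, within 25 nt, held 133 regions, of which 33.1% were called in all 10 libraries, and exons just over it held 122, of which 31.1% were.

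**Figure D1:**
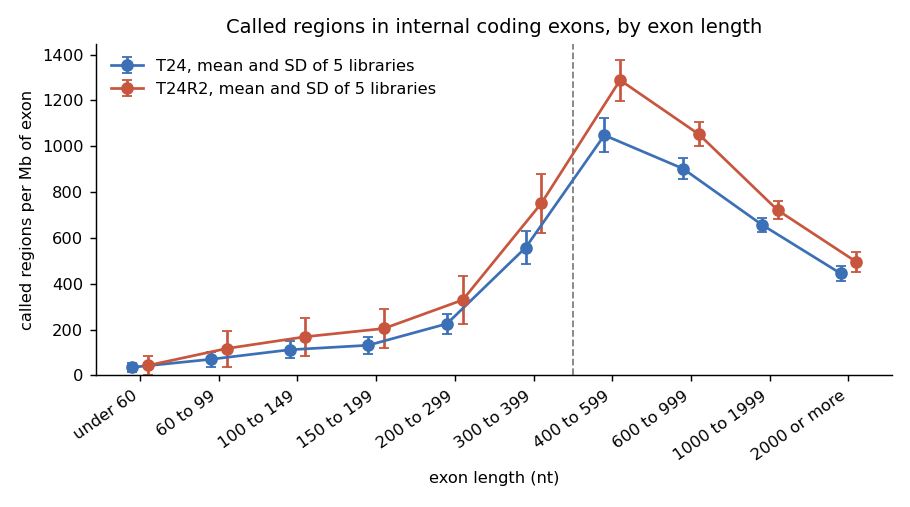
Called regions per Mb of internal coding exon against exon length in nt, as the mean and SD of the 5 IP libraries of each line, with the dashed line at the limit of 400 nt. Density rose in both lines up to exons of 400 to 599 nt, where it was 1048 ± 73.0 per Mb in T24 and 1289 ± 89.0 in T24R2, and fell in longer exons.

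Within each library the contrast between short and long exons was of the same kind. The mean density of called regions over the 10 libraries was 187 per Mb in short and 787 per Mb in long internal coding exons, and it was lower in short exons in 10 of 10 libraries (two-sided exact sign-flip permutation p = 0.00195, the smallest that 10 libraries allow). The long-exon density was 5.10 ± 1.27 times the short-exon density in T24 and 4.08 ± 1.04 times in T24R2 (SD, n = 5 each), and this ratio was not distinguished between the lines (exact permutation p = 0.198). With only peaks of −log10 q of at least 5 the ratio differed by -1.62 in T24R2 minus T24 (exact permutation p = 0.0397), and at 10 or more by -2.72 (exact permutation p = 0.0159).

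Few short-exon regions recurred across all libraries. All 10 libraries called 480 of them (9.34%), against 52.6% of long-exon regions, 42.7% of regions near a stop codon and 21.9% of all regions. A single library called 1823 (35.5%), against 9.86%, 13.5% and 27.9%. T24R2 replicate 5 alone accounted for 1017 of the 1823. Without that library, 1311 short-exon regions were called in 1 library and 480 in all of the rest. Short-exon regions had a median width of 174 bases, long-exon regions one of 527.5 bases, and a wide region is easier for a peak to touch. The part of width in these counts was not tested.

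**Figure D2:**
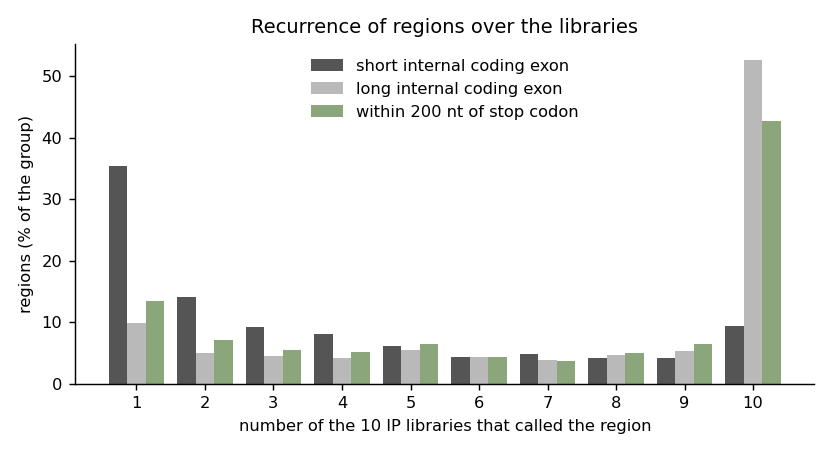
Percent of regions in each group against the number of the 10 IP libraries that called them. Short-exon regions pile up at 1 library (35.5%), long-exon regions and regions near a stop codon at 10 libraries (52.6% and 42.7%).

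Where a short-exon region was called, it was weaker than a long-exon region. Strength was taken from the strongest peak of a library in the region. It was the percentile of that peak's fold enrichment (IP over input) within the library's list, so that libraries with different lists can be set side by side. Its median was 28.9 for short-exon regions, 54.6 for long-exon regions and 52.2 for regions near a stop codon, as means over the 10 libraries. The difference of short from long was -25.6 ± 5.35 percentile points (SD, n = 10 libraries), and it ran from -33.7 to -16.2. It was below zero in 10 of 10 libraries (two-sided exact sign-flip permutation p = 0.00195). The corresponding median fold enrichments were 5.43 and 7.36. A wide region can hold more than 1 peak of a library. With regions over 1000 bases left out the difference of short from long was -21.9 points (two-sided exact sign-flip permutation p = 0.00195). The part of width in strength was not tested. The lines did not separate on the strength of their short-exon regions, with 29.2 ± 3.35 in T24 and 28.7 ± 2.82 in T24R2 (exact permutation p = 0.841).

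That comparison between the lines turned with the measure. By the percentile of −log10 q the T24R2 median was higher, 43.5 ± 6.06 against 36.5 ± 5.20, without passing the test (exact permutation p = 0.0794). With lists cut to the same number of peaks it was lower by 5.37 percentile points on the fold scale (exact permutation p = 0.0159), and with a −log10 q of at least 10 the difference was -9.06 points (exact permutation p = 0.0317).

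**Figure D3:**
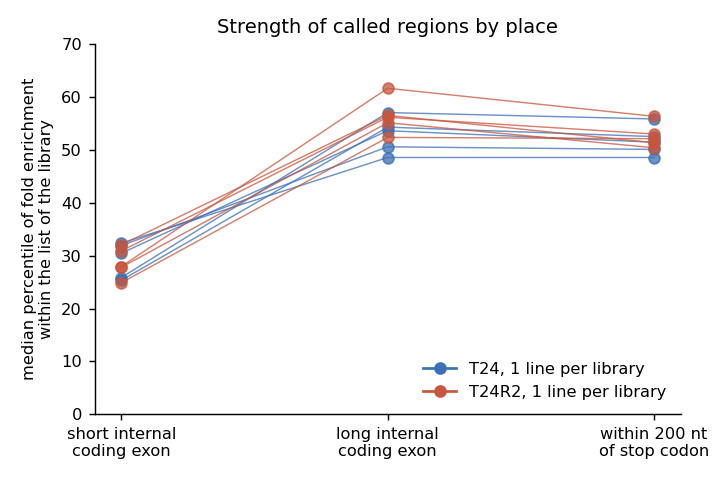
Median percentile of fold enrichment within a library's list, for regions in short internal coding exons, in long internal coding exons and within 200 nt of a stop codon, with 1 line of points per IP library. All 10 libraries sit between 24.9 and 32.4 for short exons and above 48 for the other places.

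Short-exon regions were not spread evenly along their exons. The first 10% of the exon's length, at its 5′ end, held 1205 of the 5137 positions (23.5%), and the last 10% held 39 (0.759%). In long exons the same stretches held 4.87% and 4.51%. A position lay within 50 nt of the 5′ junction in 51.7% of short-exon regions and within 50 nt of the 3′ junction in 5.88%, while 36.3% and 35.5% of all positions that the rule could have chosen in short exons of the 9179 genes did (eligible positions below). The slope was alike for genes on the plus and on the minus strand, with 24.4% and 22.5% of positions in the first 10% of the exon and 0.620% and 0.899% in the last, so it followed the direction of the gene on both strands. The peak caller extended reads by a set length along the genome, across introns as well, and the part of this in positions near junctions was not tested.

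**Figure D4:**
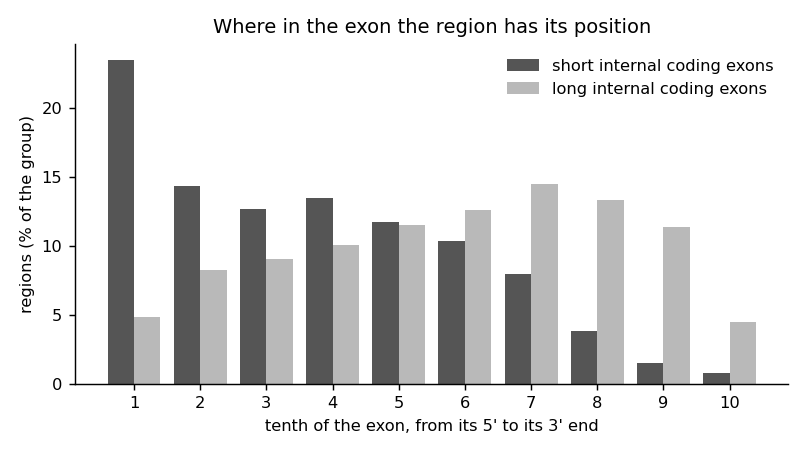
Percent of regions in each of 10 equal stretches of the exon, from its 5′ to its 3′ end, for short and long internal coding exons. In short exons 23.5% lay in the first stretch and 0.759% in the last, and in long exons 4.87% and 4.51%.

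Many short-exon regions stood next to a long exon of the same transcript. The position lay within 200 nt of spliced RNA of an exon of 400 nt or more in 42.2% of short-exon regions, against 19.2% of eligible positions. The share grew with the number of libraries that called the region, from 36.2% at 1 library and 46.6% at 5 to 9 libraries to 56.7% at all 10. WDR33, whose protein is a subunit of the messenger RNA cleavage and polyadenylation factor, is an example: its exon 17 of 109 nt lies between exons of 1089 and 439 nt, and its region was called in all 10 libraries. The median length of the exon also grew, from 157 nt at 1 library to 213 nt at all 10, against 149 nt over eligible positions. Fragments that reach from a long exon into its short neighbor were not separated from methylation in the short exon itself.

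DRACH matches were frequent in the windows, as they are in most windows of this length. Over the 10 libraries 88.1% of called short-exon regions had a match within 50 nt of the position on the sense strand and 68.9% on the antisense strand. Sense minus antisense was 19.2 percentage points in short and 22.9 in long exons, a difference of -3.66 ± 0.871 points with the same sign in 10 of 10 libraries (two-sided exact sign-flip permutation p = 0.00195). Eligible positions in short exons had a match in 87.6% on the sense and 78.0% on the antisense strand, a difference of 9.63 points. The sense share of short-exon regions was thus close to that of eligible positions, and the antisense share was lower. The shorter motif GGAC stood on the sense strand of 47.5% of short-exon windows and on the antisense strand of 27.3%, against 37.5% and 26.5% of eligible windows. Between the lines the sense minus antisense difference was 19.4 ± 0.865 points in T24 and 19.0 ± 0.549 in T24R2 (exact permutation p = 0.325), and its sign changed with the peak threshold.

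More short-exon regions were called in T24R2 than in T24, in lists that were longer altogether. The 5 T24 libraries called 1124, 1169, 1839, 1793 and 1900 short-exon regions, and the 5 T24R2 libraries called 2084, 1623, 1876, 2160 and 3907. The groups overlapped, T24 replicates 1 and 2 being lowest and T24R2 replicate 5 highest. The means were 1565 ± 384 and 2330 ± 906 (SD, n = 5 each; exact permutation p = 0.0714, where the smallest possible p is 0.00794). With lists cut to the same number of peaks T24R2 called 208.2 more (exact permutation p = 0.0635). Without T24R2 replicate 5 it called 370.75 more (exact permutation p = 0.167). The difference passed the test under 4 of the alternatives run. They were a −log10 q of at least 5 (733 more in T24R2, exact permutation p = 0.0159) or of at least 10 (553 more, exact permutation p = 0.0238), a peak covering 50% of the region (933.2 more, exact permutation p = 0.0159) and leaving out T24R2 replicate 2 (942 more, exact permutation p = 0.0159). As a share of all regions a library called, short-exon regions made up 8.64 ± 1.90% in T24 and 9.49 ± 1.98% in T24R2 (exact permutation p = 0.532). With a −log10 q of at least 10 the share was 2.21 points higher in T24R2 and passed the test (exact permutation p = 0.0238). The median exon length of called short-exon regions was 187 ± 13.1 nt in T24 and 184 ± 11.3 nt in T24R2 (exact permutation p = 0.714).

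**Figure D5:**
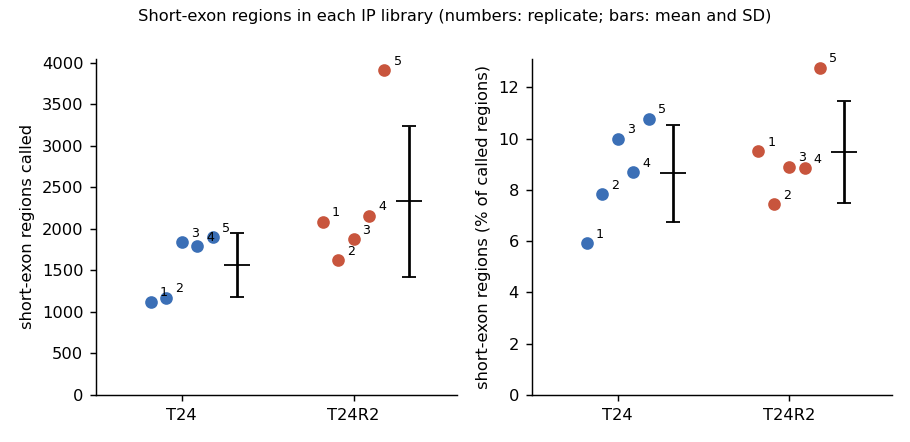
Number of short-exon regions each IP library called (left) and their percent of all regions it called (right), with replicate numbers and the mean and SD of each line. T24R2 replicate 5 is highest in both, at 3907 regions and 12.8%, and the remaining libraries of the lines overlap.

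Over the libraries 2486 short-exon regions were called in both lines, 2021 in T24R2 libraries only and 630 in T24 libraries only, and of these 1342 and 481 rested on 1 library. A region called in all 5 libraries of one line and none of the other is called line-specific here. There were 58 T24R2-only short-exon regions (1.13%, against 3.02% of all 43676 regions) and 12 T24-only ones (0.234%, against 1.05%). When presence was tested region by region, 5 libraries against 5 (Fisher, two-sided and exact), the unadjusted p was under 0.05 for 215 short-exon regions called more often in T24R2 (4.19%, against 7.11% of all regions). For 34 the same held in T24 (0.662%, against 2.09%). After Benjamini-Hochberg adjustment over all regions 0 of them passed, and 0% of all regions did, since the smallest p of 5 against 5 libraries is 0.00794 and gave an adjusted p of 0.195 by Fisher's exact test. With lists cut to the same number of peaks the counts were 16 and 8, and with only peaks whose own summit lay in the exon they were 37 and 9.

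Of the T24R2-only regions, 33 of 58 (56.9%) lay in genes with a further exonic region that every library called, against 74.5% of all short-exon regions. TNC encodes tenascin-C, a glycoprotein of the extracellular matrix. Its exon 4 region had fold enrichments of 4.63, 7.41, 5.38, 7.60 and 7.36 in T24R2 replicates 1 to 5 and no peak in T24. This exon follows one of 1410 nt, and the position lay 25 nt from that long exon.

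PCNT encodes pericentrin, a scaffold of the centrosome, and CENPF a kinetochore-associated protein. The PCNT exon 39 region had fold enrichments of 9.94, 5.17, 11.04, 5.43 and 16.0 in the T24R2 libraries. The position lay 4 nt from an exon of 687 nt, and 4 T24R2 libraries had a peak with its own summit in exon 39. The CENPF exon 10 region reached 3.72, 6.09, 2.74, 5.93 and 4.06, which put it as low as percentile 2.35 of a list. Both genes had further regions in all 10 libraries, 4 for PCNT and 5 for CENPF.

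NRP2 encodes neuropilin 2, a co-receptor for semaphorins and vascular endothelial growth factors, and its exon 2 region had fold enrichments of 5.16, 5.88, 4.74, 11.7 and 4.86 in T24R2. The position lay 30 nt from an exon of 863 nt. Further T24R2-only regions lay in REXO1, PACS2, which works in sorting at contacts of the endoplasmic reticulum, NISCH, an integrin-binding protein, RABL6 and SH3TC2. Their fold enrichments ran from 3.20 in RABL6 to 17.6 in REXO1.

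Of the 12 T24-only regions, 3 (25%) lay in genes with such a further region, those of CHD7, CDH4 and TP73. CHD7 encodes a chromatin remodeler, and its exon 35 region (exon of 222 nt) had fold enrichments of 9.76, 8.13, 12.7, 6.13 and 6.91 in T24 replicates 1 to 5. The position lay 4 nt from an exon of 444 nt, and 4 T24 libraries had a peak with its own summit in exon 35. The CDH4 exon 3 region, in the gene of R-cadherin, had 2.82, 6.49, 7.48, 7.99 and 3.96. TP73, a member of the p53 family, had 3.07, 2.89, 3.74, 5.03 and 14.1 in its exon 4 region, where replicate 5 was far above the rest.

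Of the further T24-only genes, CDH8 is a cadherin like CDH4, ROBO1 and ROBO2 are receptors for SLIT guidance proteins, and LAYN, with 2 T24-only regions in exons 2 and 3, is a hyaluronan receptor. The fold enrichments of the CDH8 exon 3 region were 15.5, 9.21, 6.58, 6.96 and 8.35, and those of the LAYN exon 2 region were 11.2, 5.65, 4.98, 8.87 and 6.86. ELF3, an epithelial transcription factor, and STON2, an adaptor of endocytosis, had lowest fold enrichments of 2.69 and 6.18. PSG4 and PSG6 encode pregnancy-specific glycoproteins, a family of near-identical genes, so reads may be assigned to the wrong copy and these regions are uncertain.

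Most genes held few short-exon regions. There was 1 in 1793 of the 2890 genes (62.0%), and 5 or more in 151 genes. CENPE, the kinetochore motor that helps to align chromosomes, had the most, 27 regions in 27 of its 47 eligible short exons. Next came PCNT and TNRC18 with 17 each, MYH9 with 16, CENPF with 14, BAHCC1 and ZC3H18 with 12 and MYH10, SIPA1L3, TNC and TOP2A with 11. These long multi-exon genes differed in how steady their regions were. In TNRC18, a chromatin-associated protein, 7 of 17 regions were called in all 10 libraries, in ZC3H18, which links the cap-binding complex to RNA decay, 4 of 12, and in CENPE 1 of 27.

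Of the 151 genes, 12 (7.95%) had more short-exon regions in every T24R2 library than in any T24 library, and 1 (0.662%) the reverse. The 151 were chosen on regions of both lines together, so TNC and NIBAN2, with none in any T24 library, entered through T24R2 alone. Every T24R2 library also called more regions of all kinds (21061 to 30599) than any T24 library (14944 to 20658). Genes outside this filter were not counted. Among the 12 were CENPE, PCNT, MYH9, CENPF, TNC, CD163L1, JADE2, KDM2B, LONP1, RBM33 and NIBAN2. CENPE had 5, 4, 10, 7 and 8 in T24 and 19, 13, 15, 16 and 25 in T24R2. MYH9, the heavy chain of non-muscle myosin IIA, had 0, 1, 4, 7 and 3 in T24 and 14, 10, 10, 12 and 12 in T24R2. TNC had none in any T24 library and 4, 4, 6, 4 and 10 in T24R2. The gene with the reverse order was CDH4, with 2, 3, 3, 4 and 3 in T24 and 0, 0, 0, 0 and 1 in T24R2. BAHCC1, a reader of chromatin marks, had 45 calls over the T24 libraries and 27 over the T24R2 libraries, and its groups overlapped.

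Regions called in all 10 libraries were ranked by their lowest percentile in any library. The leading genes were CFAP20DC, LRRC27, TTN, CEP250, PLK4, GPATCH3, FANCA, SPATA13, WDR33 and GPAT2. The position lay 5 nt from a long exon in WDR33, 6 nt in GPATCH3, 39 nt in CEP250 and 82 nt in TTN. It lay 187 to 821 nt away in SPATA13, FANCA, PLK4, LRRC27 and CFAP20DC, and the GPAT2 transcript had no long exon. With only peaks whose own summit lay in the exon, 260 short-exon regions were called in all 10 libraries, against 480 otherwise. Signal from a long neighbor was not separated from signal of the short exon itself. The CFAP20DC exon 12 region never fell below percentile 80.7, with fold enrichments of 11.7, 15.7, 19.4, 12.4 and 10.9 in T24 and 10.8, 16.5, 12.5, 18.3 and 21.7 in T24R2. PLK4, the kinase that starts centriole duplication, had 10.3, 12.9, 19.7, 21.2 and 13.9 in T24 and 10.2, 16.7, 9.09, 10.0 and 18.7 in T24R2. In both genes the lines overlapped.

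CEP250, a protein that links the centrosomes, had fold enrichments of 10.0 to 15.5 in a 114 nt exon that follows one of 2616 nt. FANCA belongs to the Fanconi anemia complex for repair of DNA crosslinks. Its region was 3282 bases wide and its position also lay in an exon of ZNF276, and those of TTN, SPATA13 and GPAT2 also lay in exons of other genes, so without strand they cannot be assigned. Of all short-exon regions 348 lay in an exon of another gene as well, and 16 were wider than 1000 bases.

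For 296 short-exon regions no other region of the gene was found, and 16 of these were called in all 10 libraries. OSGEPL1 and METTL2B, which encode tRNA-modifying enzymes, were among them, and METTL2B has a close copy, METTL2A, with which it may share reads. The METTL2B position also lay in an exon of another gene, so without strand it cannot be assigned. The OSGEPL1 exon 3 region (exon of 388 nt) had fold enrichments of 7.08 to 15.7, and the METTL2B exon 3 region (exon of 356 nt) 4.98 to 10.4. FBXW5, a substrate adaptor of a ubiquitin ligase, had 4.64 to 7.201 in a region 2586 bases wide, and MATN1, a matrix protein of cartilage, had 3.99 to 12.2.

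Fold enrichment itself could be compared between the lines for the regions called in all 10 libraries. It was taken as log2 and centered on the median of each library, and limma was fitted to all 9577 such regions. This fit was added after the lists had been examined. After Benjamini-Hochberg adjustment 46 of all 9577 regions (0.48%) were stronger in T24R2 and 30 (0.313%) in T24. Among the 480 short-exon regions 0 were stronger in T24R2 and 4 in T24. At an unadjusted limma p under 0.05 there were 36 (7.50%, against 7.6% of all 9577) and 29 (6.04%, against 6.36%). The median difference was 0.079 on the log2 scale for short-exon regions and 0.016 for all.

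WNT5B encodes a secreted WNT ligand. Its exon 4 region had fold enrichments of 17.3, 6.94, 16.4, 20.1 and 9.73 in T24 and 6.03, 7.87, 3.26, 5.79 and 3.43 in T24R2, a log2 difference of -1.49 ± 0.293 (SE, limma adjusted p = 0.0149). Only T24 replicate 2 fell among the T24R2 values. STIL, a centriole assembly factor, had 14.4, 14.9, 13.2, 13.9 and 14.3 in T24 and 6.26, 6.41, 7.48, 9.18 and 5.53 in T24R2 in its exon 13 region, with no overlap (-1.14 ± 0.240, limma adjusted p = 0.0233).

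The exon 3 region of NCOA5, a nuclear receptor coactivator, fell by 1.13 on the log2 scale in T24R2 (limma adjusted p = 0.0324), with 6.71 to 16.3 in T24 and 4.35 to 6.33 in T24R2. The exon 35 region of ARHGEF28, an activator of RhoA, fell by 1.12 (limma adjusted p = 0.0377), with 10.1 to 18.2 in T24 and 4.59 to 8.97 in T24R2. Neither overlapped between the lines. Uncentered or as percentiles 2 short-exon regions were stronger in T24, and with 1 library left out 1 to 5 were.

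Gene lists were described by their counts. They were chosen with earlier results of these data known. The counts are read beside the 9.34% of all short-exon regions, and the 21.9% of all regions, that were called in all 10 libraries. The 29 cytoskeleton and motor genes held 97 short-exon regions, led by MYH9, MYH10, MYO9B and SPTBN1. All 10 libraries called 6 of the 97 (6.19%). T24R2-only regions among them numbered 2 (2.06%, against 1.13% of all short-exon regions and 3.02% of all regions). Of these 97, 7 (7.22%) were called more often in T24R2 at an unadjusted p under 0.05 (Fisher's exact test), and 0 in T24. The share toward T24R2 was 4.19% among all short-exon regions and 7.11% among all regions. FLNA, which crosslinks actin filaments, had 1, 1, 1, 1 and 0 regions in the T24 libraries and 3, 5, 1, 5 and 5 in the T24R2 libraries.

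The 30 extracellular matrix and adhesion genes held 53 short-exon regions, led by TNC, COL18A1, FAT1 and ITGA3. All 10 libraries called 2 of them (3.77%). A further 3 (5.66%, against 1.13% of all short-exon regions and 3.02% of all regions) were T24R2-only, all of them in TNC. In the same comparison 5 (9.43%, against 4.19% and 7.11%) had an unadjusted p under 0.05 toward T24R2 (Fisher's exact test). The 28 cell surface receptors held 47 short-exon regions, of which 9 (19.1%) were called in all 10 libraries. Line-specific regions numbered 0 among the 47. Of all short-exon regions 1.13% were T24R2-only and 0.234% T24-only, so a count of 0 in 47 cannot be read as a difference. LRP5 and LRP6, the co-receptors of WNT signaling, had 8 regions each with 3 each in all 10 libraries, and EPHA2, an ephrin receptor, had 7 with 2.

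Genes of transcription and chromatin held 79 short-exon regions in 21 of 28 genes, 12 of them (15.2%) called in all 10 libraries. ARID1B, a SWI/SNF subunit, had 7, of which 3 were called in all 10 libraries. In splicing, exon junction complex and nonsense-mediated decay genes there were 17 regions in 9 of 28 genes, 4 of them (23.5%) in all 10 libraries, 1 each in UPF1, UPF2, UPF3A and UPF3B. The 20 ubiquitin and proteolysis genes had 14 with 0 in all 10 libraries, and the 30 metabolic enzymes had 13 with 2, both in OGDH, a subunit of the oxoglutarate dehydrogenase complex. Neither of these lists held a line-specific region, where 1.13% of all short-exon regions were T24R2-only and 0.234% T24-only. With 14 and 13 regions a count of 0 cannot be read as a difference.

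Of the transcripts that the study followed up, 14 were listed here, which is not all of them. They were chosen on these samples and so are not independent evidence. Of the 14, 6 held 9 short-exon regions. OSBP2, an oxysterol-binding protein, had a T24R2-only region in exon 7, and no other of the 9 was line-specific. This share of 11.1% rests on 1 region, against 1.13% of all short-exon regions and 3.02% of all regions. FUT8, a fucosyltransferase, had 1 region, in exon 4, that all 10 libraries called. Its fold enrichments were 4.51, 2.49, 3.32, 4.00 and 2.52 in T24 and 8.09, 12.8, 7.37, 10.4 and 3.18 in T24R2, so T24R2 replicate 5 lay within the T24 range (log2 difference 1.12 ± 0.312, limma adjusted p = 0.0974).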

How the data were processed

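Peak lists of the 10 IP libraries and the merged region list were used. Per the paper's methods the authors aligned reads to hg38 with STAR 2.7.0, kept unique reads without duplicates with SAMtools 1.10 and called peaks of IP over input per library with MACS2, with no model and a fixed extension along the genome. The submitters' processing notes give the MACS2 version as 3.0.0a6. The deposited lists give a start, an end and a summit, the authors' score (made from the q-value), a fold enrichment, which is the ratio of IP to input, and the −log10 p and −log10 q (at least 2.00 in every row). The merged regions were deposited as coordinates without a sample. No read counts were in these files, so the count tests of the study were not run, and −log10 q and fold enrichment depend on depth, which is unknown.

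Positions were placed on 19701 Ensembl canonical coding transcripts of GENCODE 44 (hg38), which is not the release that the authors aligned with, and windows were read from its transcript sequences. Members, gene lists and tests were chosen with earlier results of these data known. Libraries were grouped by their titles. Per-library values of the lines were set against each other with two-sided exact permutation over all 252 assignments, differences within libraries by a sign-flip test, presence by Fisher's exact test with Benjamini-Hochberg adjustment over 43676 regions, and log2 fold by limma 3.58.1 in R 4.3.3 (Python 3.11.15, scipy 1.17.1). The code was tested on simulated data. Nothing in the labels says that replicates came from separate cultures, so p-values measure the spread between these samples.

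Genes were named by rule: the 10 genes with the strongest regions among those called in all libraries, the 10 genes in each direction with the highest lowest −log10 q percentile among line-specific regions (measurable genes first), the 10 with most short-exon regions, at most 4 of each list, and up to 8 that were the gene's only region. TOP2A, FLNA, STIL, WNT5B, NCOA5, ARHGEF28, FUT8, CDH5, ROBO1 and the non-overlapping genes were singled out after their values were seen. Some genes that the rule names are not reported here.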

Additional observations from a re-analysis of the deposited data

Results flagged for a closer look

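T24R2 replicate 5 stood far from the other 4 T24R2 libraries in 3 values. It called 3907 short-exon regions, where the next library called 2160. These lay in 2312 genes, against 1459 in the next library. It also called 1017 short-exon regions that no other library had, against 108 for the next T24R2 library. The exons of these had a median length of 151 nt, against 171 nt for all short-exon regions, and 38.1% lay within 200 nt of a long exon. Of 24 sets of 5 library values that were examined 3 stood out, where chance alone gives about 5%. The 3 are related counts of the same library, so they are not separate results and cannot be set against that rate. The cause was not tested.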

How the results depend on the processing

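The lower strength and the lower DRACH excess of short-exon against long-exon regions kept their direction and side of the threshold under every alternative run. The comparisons between lines, given as T24R2 minus T24, moved more. With −log10 q of at least 5, T24R2 called 733 more short-exon regions, the density ratio differed by -1.62, DRACH by 0.035 points, and T24-only regions numbered 6. At 10 these were 553, -2.72, 0.667 and 3, the share rose by 2.21 points, the strength differed by -9.06 and T24R2-only regions numbered 23. The differences in calls and density passed the test at both limits, and those in share and strength at 10. With fold enrichment of at least 4 the strength differed by 1.88, DRACH by 0.026, and T24R2-only regions numbered 24. With lists of equal length these were -5.37 (past the test), 0.799 and 16, and regions called in all libraries or in 1 numbered 270 and 1131.

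With a peak covering 50% of the region, T24R2 called 933.2 more (past the test), DRACH differed by 0.160 and 4 regions were T24-only. With own summits in the exon, exon length differed by 3 nt, 37 regions were T24R2-only and 260 were called in all libraries. With exons under 200 nt, strength differed by 2.01, exon length by 1 nt, and 25 and 2 regions were line-specific. Calling at least 4 of 5 against at most 1 gave 287 and 59. By −log10 q percentile the strength differed by 7.03. By limma, percentiles gave 1 region stronger in T24R2 and 2 in T24, no centering (which moved the median of all regions to 0.113) 2 in T24.

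Leaving out 1 library at a time, the difference in calls ran from 370.75 to 941.75 (highest, and past the test, without T24R2 replicate 2), strength from -1.43 to 0.484 and exon length from -7.325 to 2.10. T24R2-only regions ran from 62 to 90 (without T24R2 replicate 3), T24-only from 12 to 20 (without T24 replicate 1). Limma gave 0 to 2 in T24R2 and 1 to 5 in T24, 1 without T24 replicate 2 and T24R2 replicates 1 and 2. Same-numbered libraries did not deviate together (correlations -0.050 to 0.024, and 0 of 5 T24 libraries fitted best with their own number). With the replicate number as a replicate block the difference in calls gave an exact permutation p = 0.0625. That is the smallest p that 5 pairs allow, so no comparison of the lines could pass the permutation test with this block. Limma with the block gave 2 in T24. Of the 20 named line-specific regions, 10 kept their calls with equal lists and 3 at −log10 q of at least 10. The causes were not tested. Depth is unknown, so a missing call cannot be read as missing methylation.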
